A study of Homo sapiens with 18 samples.

Results

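A549 lung cancer cells given siRNA2 against BLM and A549 cells given siRNA3 against BLM both had BLM mRNA far under control, and they differed in 7622 of 13598 tested genes, BLM itself among them. Cells with siRNA2 had more RNA of E-cadherin, EPCAM, CEACAM adhesion genes, mucins, complement, fibrinogen and the endoplasmic reticulum stress response. Cells with siRNA3 had more RNA of SNAI2, ZEB1 and ZEB2, of actin-binding genes such as TAGLN and TPM1 and of YAP target genes such as CTGF and CYR61. The markers did not split cleanly: the mesenchymal marker FN1 was higher with siRNA2 and the epithelial marker CLDN4 was higher with siRNA3. The comparison is direct, library against library, and takes 6 of the 18 libraries of the series: 3 A549 libraries labelled BLM.siRNA2 and 3 labelled BLM.siRNA3. The labels alone gave each library its group. Of 27968 gene symbols in the files, the 13598 with at least 1 CPM (counts scaled to a common library total) in at least 3 of the 6 libraries were tested.

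The study profiled total RNA from A549, a human lung adenocarcinoma line, and MDA-MB-231, a human breast cancer line, after transfection with control or BLM siRNAs. Both groups compared here are A549 cells in DMEM with 10% fetal bovine serum, and they differ in the labels only by the siRNA, BLM.siRNA2 or BLM.siRNA3. The 3 A549 libraries with a control siRNA, labelled CTL, come from the same protocol and are given as background. RNA was taken at 80% confluence from 2D cultures and on day 4 from 3D cultures, but no label ties either culture to a library. Whether the 3 libraries of each siRNA are separate cultures is not stated either, so p-values measure only the spread among these libraries, possibly technical spread. The siRNA sequences were not used here.

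BLM is a RecQ family helicase that works with TOP3A, RMI1 and RMI2 to take apart joined DNA molecules during homologous recombination, and its loss causes Bloom syndrome. An siRNA guides the RNA interference machinery to a matching mRNA, which is then cut. Carcinoma cells lie along a range from epithelial, with E-cadherin junctions, to mesenchymal, with ZEB and SNAI repressors, stress fibres and matrix contacts, and A549 cells are widely used to study moves along it.

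The 6 libraries held 30887830 to 35638427 expected counts. siRNA3 replicate 3 stood apart from the others. The SD over genes of its log2 CPM around the group mean was 0.242, and that of the other 5 libraries was 0.0759 to 0.155. The deviation followed transcript length: the Spearman coefficient across genes, which are not independent replicates, was -0.775 in siRNA3 replicate 3, and 0.676 and 0.610 in siRNA3 replicates 1 and 2. Deviations within a group balance out around its mean. The opposite slopes of siRNA3 replicates 1 and 2, and part of their SD, are therefore not observations separate from siRNA3 replicate 3. With genes cut into 10 bins by length, siRNA3 replicate 3 had a median deviation of 0.26 in the bin of the shortest transcripts and -0.37 in that of the longest. Values without this library are therefore given beside several results on long genes. Leaving it out gave 9040 differing genes, 4550 higher and 4490 lower with siRNA2.

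**Figure D1:**
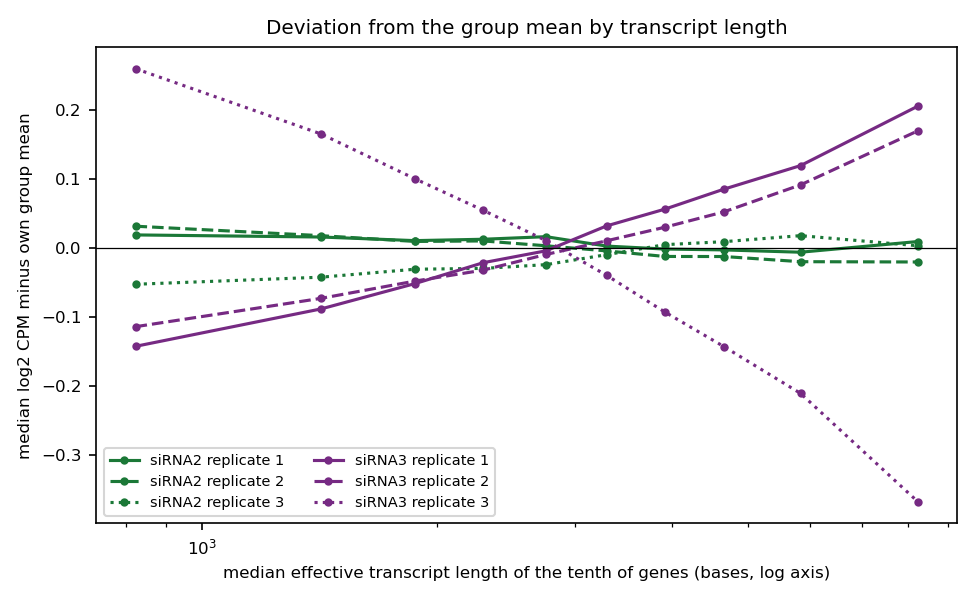
Median deviation of log2 CPM from the library's own group mean (y axis) in 10 bins of genes ordered by effective transcript length (x axis, log scale), 1 line for each of the 6 libraries. The line of siRNA3 replicate 3 starts at 0.26 in the shortest bin and ends at -0.37 in the longest. siRNA3 replicates 1 and 2 slope the other way, as deviations within a group balance out around its mean.

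Between siRNA2 and siRNA3 cells, 56.1% of tested genes were called, 3937 of them higher with siRNA2 (29.0%) and 3685 lower (27.1%). The list counts below are to be read beside these shares. A gene was called when its p from edgeR's quasi-likelihood test, adjusted by Benjamini-Hochberg over all 13598 genes and written as the edgeR adjusted p in what follows, was under 0.05. Differences are log2 fold changes of siRNA2 over siRNA3 with their standard error. The median size of a difference over all tested genes was 0.40, and 2309 genes (17.0%) were called with a difference of at least 1, of which 1466 were higher with siRNA2 (10.8%) and 843 lower (6.20%). The CPM values of the 2 groups did not overlap for 64.8% of tested genes, so a lack of overlap is the common case here. Of the tested genes, 12486 passed the filter in all 6 libraries. Another 397 passed through the siRNA2 libraries alone and 172 through the siRNA3 libraries alone, of which 389 and 168 were called. A gene that passed in this way is high in 1 group by the filter itself, so such genes are no support for a direction and their differences stand below as values. The list counts below include such genes. The named genes of this kind are CA9, CEACAM5, CHGB, CLDN3, COL21A1, COL3A1, EPHA7, FGL1, GRHL3, HLA-DMA, HLA-DMB, IGF2, ITGB2, MUC16, NUPR1, SLPI, SPINT1, TC2N and TJP3 on the siRNA2 side, and CGB5, CGB8, CTNNA2, RASGRP3 and WNT5B on the siRNA3 side. In bulk samples like these, fewer cells of a kind and less RNA per cell cannot be told apart.

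BLM itself had 10.3, 10.7 and 11 CPM with siRNA2, against 6.2, 5.94 and 6.48 CPM with siRNA3. The groups did not overlap, and BLM was 0.73 ± 0.10 higher with siRNA2 (edgeR adjusted p = 0.000432, and 0.76 without siRNA3 replicate 3). The control libraries had 77.3, 79.1 and 70.1 CPM, so both groups sat far under control and the gap between them was the smaller one. Against those controls, in a fit of 12 A549 libraries in which both comparisons share the same 3 control libraries, BLM was -2.91 ± 0.08 with siRNA2 and -3.6 ± 0.09 with siRNA3. Of the partners, TOP3A, the topoisomerase of the complex, had 43.7, 44.4 and 43.4 CPM with siRNA2, against 63.2, 69.2 and 57.9 CPM with siRNA3, and it was lower with siRNA2 (-0.58 ± 0.08, edgeR adjusted p = 0.00061). RMI1, a scaffold of the complex, had 20.2, 20.9 and 24.2 CPM with siRNA2, against 16.5, 15.6 and 14.2 CPM with siRNA3, and it was higher with siRNA2 (0.45 ± 0.10). The control libraries had 42.4, 43.9 and 42.1 CPM of RMI1, above all 6. RMI2 did not pass the test (-0.28 ± 0.14, edgeR adjusted p = 0.115).

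**Figure D2:**
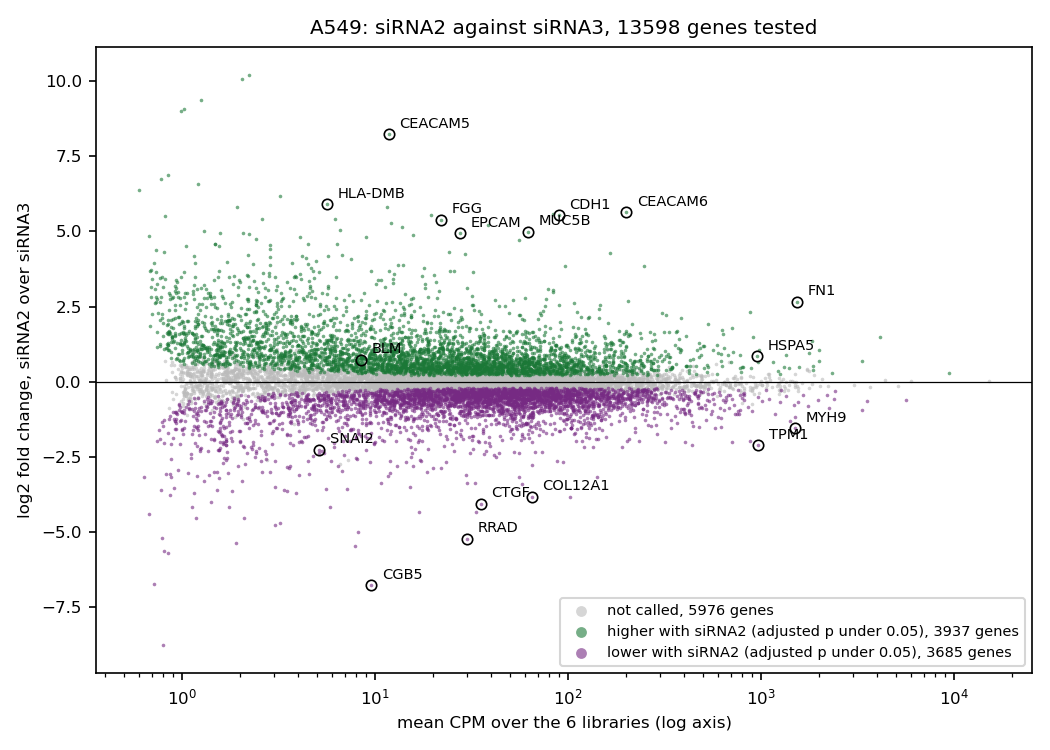
Log2 fold change of siRNA2 over siRNA3 (y axis) against mean CPM over the 6 libraries (x axis, log scale), 1 point for each of 13598 genes, green where called higher with siRNA2, purple where called lower and grey where not called. CEACAM5, CDH1 and EPCAM lie at the top and CGB5, RRAD and CTGF at the bottom, and calls reach down to small differences at high CPM.

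The genes with the largest differences were cell surface and secreted products on the siRNA2 side, and hormone, signalling and matrix genes on the siRNA3 side. After CEACAM5 and HLA-DMB, the highest was CHGB, a protein of secretory granules, which had 23.6, 20.4 and 24.3 CPM with siRNA2, against 0.421, 0.353 and 0.389 CPM with siRNA3. The difference was 5.81 ± 0.15. CP, the plasma copper carrier ceruloplasmin, had 168, 140.4 and 184 CPM with siRNA2, against 3.94, 3.55 and 2.43 CPM with siRNA3, a difference of 5.58 ± 0.19. IGF2, a fetal growth factor, had 24.2, 22.6 and 24.4 CPM with siRNA2, against 0.617, 0.578 and 0.583 CPM with siRNA3, a difference of 5.27 ± 0.12. COL21A1, a collagen (5.55 ± 0.14), TC2N (5.41 ± 0.30) and FGL1, a fibrinogen-like secreted protein (5.15 ± 0.16), had differences of similar size. Of the genes named here for the siRNA2 side, CP alone passed the filter through both groups. For the others the filter itself set the direction and the gap between the groups.

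At the other end stood CGB5, a beta subunit gene of chorionic gonadotropin, which had 0.203, 0.123 and 0.214 CPM with siRNA2, against 17.9, 18.3 and 20.7 CPM with siRNA3. The difference of CGB5 was -6.77 ± 0.19. Its near-identical copy CGB8 had a difference of -5.48 ± 0.20, and reads can be split between such copies. Both copies passed the filter through the siRNA3 libraries alone, which set their direction. Summed over the 6 CGB genes in the files, a sum chosen after its values were seen, the family had 0.718, 0.848 and 0.912 CPM with siRNA2, against 37.4, 35.3 and 41.9 CPM with siRNA3, and 0.685, 0.977 and 1.04 CPM in control. The siRNA2 libraries were thus within the range of control and the siRNA3 libraries above both. RRAD, a small GTPase, had 1.9, 1.7 and 1.25 CPM with siRNA2, against 58.7, 54.5 and 62.2 CPM with siRNA3. The groups did not overlap, with a difference of -5.22 ± 0.15. MARCH4, a ubiquitin ligase (-4.36 ± 0.13), RASGRP3, an exchange factor for Ras proteins (-4.17 ± 0.20), IGFN1 (-4.33 ± 0.40, and -4.67 without siRNA3 replicate 3) and TSPAN2, a tetraspanin (-3.57 ± 0.20), were also lower with siRNA2. MAGED4 was called lower too (-3.56 ± 1.09), but it has a copy, MAGED4B, and the pair summed to 26.5, 25.2 and 25.6 CPM with siRNA2, against 31.5, 31.8 and 34.4 CPM with siRNA3. On leaving out 1 library its difference ran from -8.67 to -2.70, and the call was lost without siRNA2 replicate 2, siRNA2 replicate 3 or siRNA3 replicate 1. The part of the division of reads between the copies was not tested.

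Cadherins, the calcium-dependent adhesion molecules of cell contacts, moved in both directions: of 10 tested cadherin and catenin genes 4 were higher with siRNA2 and 4 lower (median -0.00). CDH1, E-cadherin, the core of epithelial adherens junctions, had 179.9, 177 and 172 CPM with siRNA2, against 4.1, 4.04 and 2.82 CPM with siRNA3. The groups are far apart, with a difference of 5.54 ± 0.14 (edgeR adjusted p = 5.02e-07, and 5.39 without siRNA3 replicate 3). The control libraries lay between them at 48.3, 39.99 and 43.6 CPM, and against control CDH1 was 1.91 ± 0.10 with siRNA2 and -3.58 ± 0.12 with siRNA3. CDH17, a cadherin of intestinal epithelium, had 59.1, 48.9 and 59.5 CPM with siRNA2, against 3.23, 2.86 and 2.46 CPM with siRNA3, a difference of 4.24 ± 0.14. Here the siRNA3 libraries lay within the control range (4.42, 2.39 and 2.93 CPM), and siRNA2 stood apart. CDH6 (2.4 ± 0.15) and JUP, plakoglobin, the catenin shared by adherens junctions and desmosomes (1.2 ± 0.08), were also higher with siRNA2. On the other side, CDH2, the N-cadherin of neural and mesenchymal cells, had 118, 120.4 and 116 CPM with siRNA2, against 189, 191 and 157 CPM with siRNA3. It was lower with siRNA2 (-0.64 ± 0.09, edgeR adjusted p = 0.000561), although both groups were above control (71.4, 70.9 and 74.2 CPM). Per length, CDH1 averaged 72.7 TPM and CDH2 57.5 TPM with siRNA2, against 1.49 TPM of CDH1 and 86.2 TPM of CDH2 with siRNA3, so the order of the 2 cadherins in the mean TPM was opposite in the 2 groups. CDH4, R-cadherin (-2.23 ± 0.15), and CTNNA2, the neural alpha-catenin (-4.16 ± 0.34, on siRNA2 levels of 0.23, 0.0585 and 0.274 CPM), were lower with siRNA2, as was CTNNA1 (-0.38 ± 0.08). The catenins CTNNB1 (-0.18 ± 0.08) and CTNND1 (0.17 ± 0.08) did not pass the test.

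The CEACAM family encodes immunoglobulin-like adhesion molecules of epithelial surfaces, several of them raised in carcinomas. Of its 12 genes in the files 4 were tested, and 3 were higher with siRNA2, of which CEACAM5 passed the filter through the siRNA2 libraries alone. CEACAM6 had 395, 387 and 399.97 CPM with siRNA2, against 7.66, 7.61 and 7.8 CPM with siRNA3. Both groups were tight and far apart, with a difference of 5.63 ± 0.10 (edgeR adjusted p = 1.3e-07), and the control libraries lay between them at 26.2, 20.2 and 27.7 CPM. CEACAM5, carcinoembryonic antigen, had 26.4, 20.6 and 23.6 CPM with siRNA2, against 0.168, 0 and 0.0324 CPM with siRNA3. Its difference of 8.24 ± 0.36 rests on 0 to 6 expected counts in the siRNA3 libraries, and it was 10.15 without siRNA3 replicate 1. CEACAM1 had 29, 25.2 and 26.9 CPM with siRNA2, against 3.42, 4.27 and 3.95 CPM with siRNA3, a difference of 2.75 ± 0.12. The fourth member, CEACAM19, was lower with siRNA2 (-1.07 ± 0.08).

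Tight junctions seal epithelial sheets, and claudins set their permeability. Of 18 tested tight junction and polarity genes 12 were higher with siRNA2 and 2 lower (median 0.65), and 4 of the 18 passed the filter through 1 group alone. CLDN2, a claudin that forms cation pores in leaky epithelia, had 158, 136 and 157 CPM with siRNA2, against 17.2, 18.8 and 16.7 CPM with siRNA3. The siRNA3 libraries lay within the control range (19.98, 14.3 and 21.3 CPM) and siRNA2 was above both, with a difference of 3.05 ± 0.10 (edgeR adjusted p = 8.71e-07). TJP3, a junction scaffold (4.59 ± 0.15), CLDN3 (2.27 ± 0.22) and CRB3, a polarity protein (2.18 ± 0.16), were higher as well. CLDN4, a barrier claudin, went the other way and had 7.52, 6.84 and 6.87 CPM with siRNA2, against 18.2, 18.9 and 21.6 CPM with siRNA3. It was lower with siRNA2 (-1.52 ± 0.11, edgeR adjusted p = 2e-05), while both groups were above control (3.98, 3.73 and 4.39 CPM). CLDN12 was also lower (-0.97 ± 0.13). Occludin (OCLN, 0.01 ± 0.09) and ZO-1 (TJP1, -0.17 ± 0.12), the broad components of tight junctions, did not pass the test.

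Among epithelial splicing, transcription and membrane genes, 13 of 25 were tested, 11 were higher with siRNA2 and 1 lower (median 1.09), the 1 being lost on leaving out any siRNA2 library, siRNA3 replicate 2 or siRNA3 replicate 3. EPCAM, an epithelial surface adhesion protein, had 48.9, 49.8 and 61.6 CPM with siRNA2, against 1.57, 1.54 and 1.91 CPM with siRNA3. The groups did not come near each other, and the difference was 4.95 ± 0.16 (edgeR adjusted p = 7.22e-07). The control libraries had 2.46, 2.31 and 1.91 CPM, and against them EPCAM was 4.49 ± 0.15 with siRNA2 and -0.41 ± 0.18 with siRNA3, of which the second did not pass the test. The ETS factor EHF (3.79 ± 0.20), the grainyhead factor GRHL3 (3.59 ± 0.22) and the protease inhibitor SPINT1 (3.2 ± 0.16), all typical of epithelia, were higher with siRNA2, although GRHL3 and SPINT1 passed the filter through the siRNA2 libraries alone. ESRP1, an epithelial splicing regulator, and GRHL2, which often accompany E-cadherin, were not tested: ESRP1 had 0.632, 0.643 and 0.426 CPM with siRNA2, against 0.0561, 0.128 and 0.0324 CPM with siRNA3.

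Keratins, the intermediate filaments of epithelia, did not move together: of 9 tested genes 4 were higher with siRNA2 and 3 lower. The shares of all tested genes were 29.0% and 27.1%. KRT19 had 240.04, 228 and 221 CPM with siRNA2, against 72.6, 71.3 and 88.6 CPM with siRNA3, a difference of 1.51 ± 0.12 (edgeR adjusted p = 2.4e-05). KRT8 was 0.29 ± 0.08 higher, a call lost without siRNA2 replicate 1 (0.27), siRNA2 replicate 2 (0.28) or siRNA3 replicate 2 (0.29), and KRT18, its partner, did not pass the test (0.09 ± 0.11). KRT7, a keratin of simple ducts and lung (-0.88 ± 0.09), KRT80 (-1.13 ± 0.08) and KRT81, a hair keratin (-1.19 ± 0.11), were lower with siRNA2. Of 10 desmosome and plakin genes 5 were higher and 2 lower. The higher ones were led by PPL, periplakin (1.73 ± 0.18), DSC2, a desmosomal cadherin (1.31 ± 0.13), and PKP3, a plakophilin (1.12 ± 0.08). The lower ones were DSG2, also a desmosomal cadherin (-0.52 ± 0.11), and PKP2, also a plakophilin (-0.43 ± 0.09). DSP (0.42 ± 0.19), PERP and PKP4 did not pass the test.

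**Figure D3:**
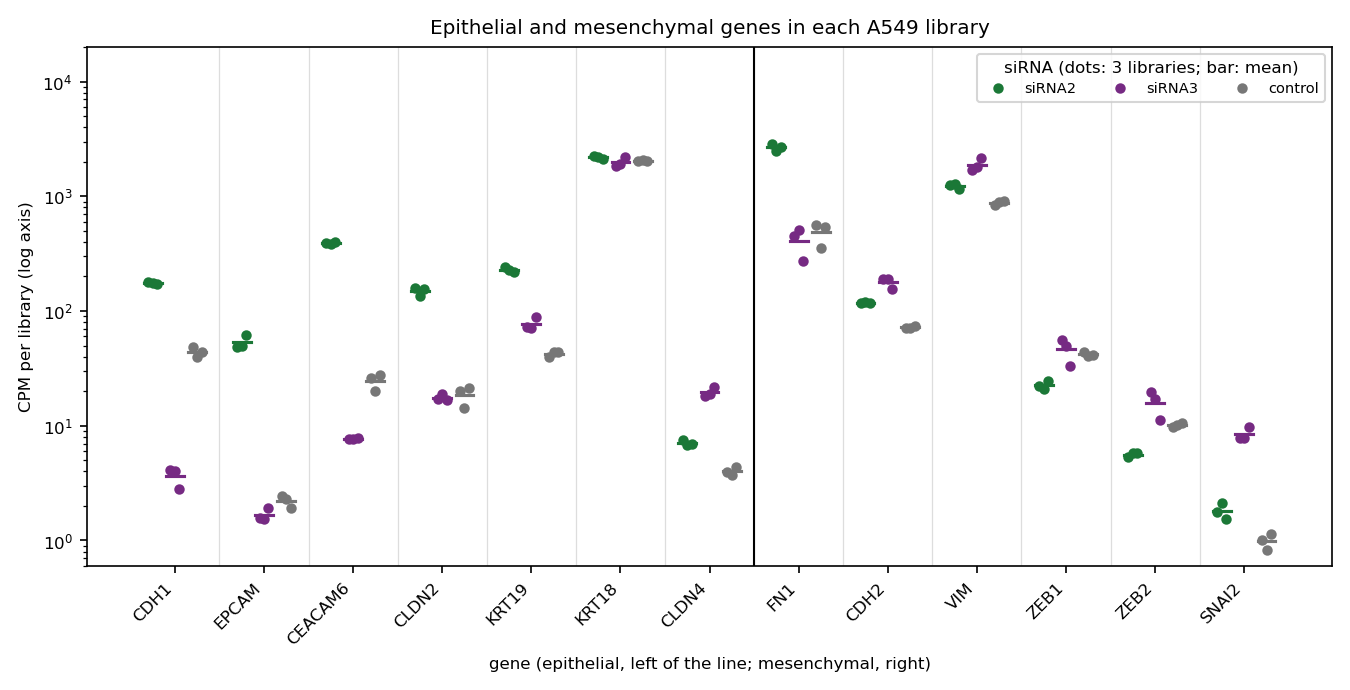
CPM (y axis, log scale) of 7 epithelial and 6 mesenchymal genes, 1 dot per library and a bar at the group mean, for siRNA2, siRNA3 and control from left to right. CDH1, EPCAM and CEACAM6 are high in the siRNA2 libraries, CLDN4 and SNAI2 are highest in the siRNA3 libraries, and FN1 is highest in the siRNA2 libraries.

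Transcription factors of the epithelial to mesenchymal transition were mostly lower with siRNA2: 7 of 12 tested were lower and 2 higher (median -0.59). SNAI2, a zinc finger repressor of E-cadherin, had 1.78, 2.13 and 1.55 CPM with siRNA2, against 7.77, 7.89 and 9.68 CPM with siRNA3. The difference was -2.26 ± 0.17 (edgeR adjusted p = 2.27e-05, and -2.15 without siRNA3 replicate 3), and the control libraries had 1.02, 0.823 and 1.14 CPM, under both. ZEB2 had 5.31, 5.79 and 5.75 CPM with siRNA2, against 19.5, 17 and 11.3 CPM with siRNA3, a difference of -1.55 ± 0.18 that was -1.75 without siRNA3 replicate 3. ZEB1 had 22.1, 20.8 and 24.5 CPM with siRNA2, against 56.2, 49.4 and 33.4 CPM with siRNA3, a difference of -1.09 ± 0.17 that was -1.28 without siRNA3 replicate 3. For both ZEB repressors siRNA3 replicate 3 was the lowest of its group and still above every siRNA2 library. The control libraries had 44.1, 40.4 and 41.6 CPM of ZEB1 and 9.77, 10.1 and 10.6 CPM of ZEB2. SNAI1 (-0.89 ± 0.15), FOXC1 (-0.91 ± 0.18) and TCF4 (-0.74 ± 0.14) were lower with siRNA2, and SOX4 (0.91 ± 0.17) and SOX9 (0.72 ± 0.13) were higher. TWIST1, TWIST2 and TCF3 did not pass the test.

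The mesenchymal markers did not form 1 block. VIM, the intermediate filament vimentin, was lower with siRNA2 (-0.66 ± 0.12, edgeR adjusted p = 0.00206). FN1, the matrix glycoprotein fibronectin, had 2846, 2486 and 2713 CPM with siRNA2, against 454, 505 and 274 CPM with siRNA3. It was higher with siRNA2 (2.66 ± 0.21, edgeR adjusted p = 2.78e-05, and 2.43 without siRNA3 replicate 3), and the control libraries had 565, 357 and 539 CPM. Against control FN1 was 2.37 ± 0.20 with siRNA2 and -0.24 ± 0.19 with siRNA3, and the second did not pass the test. Of the 7 mesenchymal markers 5 were lower with siRNA2 and 1, FN1, was higher. Of 6 tested epithelial markers 4 were higher and 1, CLDN4, was lower.

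The defining markers of other cell types were mostly at or near 0 in both groups. A549 is often used as an alveolar type 2 model, and of 10 alveolar type 2 markers only ABCA3, a lipid transporter of lamellar bodies, was tested. It was lower with siRNA2 (-1.44 ± 0.17, and -1.65 without siRNA3 replicate 3), and the summed level of the 10 markers was 39.6 to 42.3 CPM with siRNA2, 73.0 to 120.1 CPM with siRNA3 and 25.9 to 31.9 CPM in control. The surfactant genes SFTPA1, SFTPA2, SFTPB, SFTPC and SFTPD and the lineage factor NKX2-1 were too low to test. Of 9 fibroblast markers 3 were tested, with COL3A1 (3.94 ± 0.20, through the siRNA2 libraries alone) and COL1A1 (0.55 ± 0.14) higher and THY1 (-1.24 ± 0.09) lower, and their summed level was 50.1 to 55.3 CPM with siRNA2, 40.2 to 47.3 CPM with siRNA3 and 13.4 to 15.0 CPM in control, with COL1A2, DCN and FAP near 0. The leukocyte markers summed to 33.5 to 36.5 CPM with siRNA2, 34.0 to 36.5 CPM with siRNA3 and 21.4 to 26.1 CPM in control, with CD3E at 0 in all of them and PTPRC near 0. The leukocyte markers that were tested moved apart, CD14 being higher with siRNA2 (2.04 ± 0.19) and CD68 lower (-0.29 ± 0.08). CD14 had 6.58, 6.02 and 5.05 CPM with siRNA2, against 1.18, 1.28 and 1.68 CPM with siRNA3. Endothelial markers stayed under 1 CPM in sum in each of these libraries. What part these markers have in the differences was not tested.

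Mucin and airway secretory genes, products of goblet and club cells, were the list with the largest median after CEACAM genes. Of 26 genes 13 were tested, 4 of them passing the filter through 1 group alone, and 11 were higher with siRNA2 and 1 lower (median 2.79; 2 lower without siRNA3 replicate 1). MUC5B, a gel-forming airway mucin, had 134, 97.6 and 129 CPM with siRNA2, against 5.05, 4.33 and 1.52 CPM with siRNA3. The groups did not overlap, with a difference of 4.99 ± 0.36 (edgeR adjusted p = 1.76e-05) that was 4.63 without siRNA3 replicate 3. SPDEF, an ETS factor of goblet cells, had 32.9, 30.4 and 28.6 CPM with siRNA2, against 1.01, 0.674 and 1.3 CPM with siRNA3, a difference of 4.89 ± 0.19. SLPI, a secreted protease inhibitor (4.92 ± 0.32), and MUC16, a membrane mucin (3.89 ± 0.36, and 3.47 without siRNA3 replicate 3), were also higher. AGR2, a disulfide isomerase needed for mucin folding, had 496, 451 and 454 CPM with siRNA2, against 27.2, 26.5 and 40.7 CPM with siRNA3, with 110.5, 81.7 and 99.2 CPM in control between the groups. MUC12 was the exception (-2.63 ± 0.44, and -3.01 without siRNA3 replicate 3), and the club cell gene SCGB1A1 and the trefoil gene TFF3 were at 0.

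Complement, fibrinogen and coagulation genes, which liver cells make in the acute phase and A549 cells also express, were higher with siRNA2 in 19 of 22 tested cases and lower in 2 (median 1.82; 1 lower on leaving out any siRNA2 library or siRNA3 replicate 2), and 4 of the 22 passed the filter through 1 group alone. The fibrinogen chains moved together. FGG, the gamma chain, had 43.1, 37.6 and 48 CPM with siRNA2, against 0.786, 1.16 and 1.04 CPM with siRNA3. FGB, the beta chain, had 109, 96 and 119 CPM with siRNA2, against 3.48, 4.01 and 4.34 CPM with siRNA3. FGA, the alpha chain, had 48.8, 42.6 and 47.6 CPM with siRNA2, against 1.88, 2.05 and 2.82 CPM with siRNA3. In each chain every siRNA2 library was above every siRNA3 library, with differences of 5.39 ± 0.17 for FGG, 4.73 ± 0.14 for FGB and 4.32 ± 0.16 for FGA. Per length, FGG averaged 52.9 TPM, FGB 59.96 TPM and FGA 41.3 TPM with siRNA2, against 1.19 TPM of FGG, 2.12 TPM of FGB and 1.97 TPM of FGA with siRNA3. C3, the central complement component, had 317, 302 and 324 CPM with siRNA2, against 16, 16.5 and 14.6 CPM with siRNA3, a difference of 4.27 ± 0.09, and the control libraries had 52.6, 41.4 and 59.8 CPM, between the groups. TFPI2, an inhibitor of coagulation proteases, was lower with siRNA2 (-0.90 ± 0.13).

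The unfolded protein response raises chaperones and folding enzymes of the endoplasmic reticulum, and its sensor IRE1 (gene ERN1) splices the mRNA of the transcription factor XBP1. Of 20 tested genes of this response 17 were higher with siRNA2 and 1 lower (median 0.86), against 29.0% and 27.1% of all tested genes. ERN1 had 60.3, 56.3 and 59.2 CPM with siRNA2, against 13.4, 13 and 9.62 CPM with siRNA3. The control libraries, at 25.5, 22 and 27.3 CPM, lay between the groups, and the difference was 2.24 ± 0.12 (edgeR adjusted p = 5.39e-06). XBP1 had 92.1, 86.8 and 90.7 CPM with siRNA2, against 26.9, 30.3 and 35.2 CPM with siRNA3, with 46.7, 43.3 and 47 CPM in control, again between the groups, and a difference of 1.49 ± 0.12 (edgeR adjusted p = 3.01e-05). Both genes were above control with siRNA2 (1.14 for ERN1 and 0.89 for XBP1) and under it with siRNA3 (-1.05 for ERN1 and -0.56 for XBP1). PDIA4, a disulfide isomerase, had 526, 512 and 498 CPM with siRNA2, against 152, 159 and 159 CPM with siRNA3, a difference of 1.66 ± 0.08. CRELD2, a chaperone of the same compartment, had 26, 25.3 and 25.3 CPM with siRNA2, against 8.08, 8.76 and 8.77 CPM with siRNA3, and here siRNA3 was near the control level of 9.72, 8.54 and 10.1 CPM. HSPA5, the chaperone BiP that keeps the sensors inactive, had 1267, 1284 and 1162 CPM with siRNA2, against 629, 669 and 709.6 CPM with siRNA3, a difference of 0.84 ± 0.09. CREB3L2, a membrane-bound transcription factor related to ATF6, was the member that was lower with siRNA2 (-1.53 ± 0.09), and SEC61B and SYVN1 did not pass the test.

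ATF6 and XBP1 are known to bind the endoplasmic reticulum stress element, so the promoters of the list were searched on both strands for its letters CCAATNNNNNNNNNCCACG, where N is any base. RefSeq promoters of GRCh38.p14 (300 bases around the annotated start) were matched for all 20 genes of the list. Of these, 5 genes hold the element in at least 1 window, against 25 of 27305 genes (0.0916%) in the table. The list was made of known genes of the response, so this contrast is no test. The 5 genes are HSPA5 (0.84), XBP1 (1.49), PDIA6 (1.21), CRELD2 (1.53) and HSP90B1 (0.89), and each was higher with siRNA2. XBP1 and PDIA6 have another annotated start whose window does not hold it. The 5 elements are shown so that they can be compared, with the fixed letters in capitals and 8 bases on each side. The first base of the element lies at -66 from the start in HSPA5 on chromosome 9, at -52 in XBP1 on chromosome 22, at -86 in PDIA6 on chromosome 2, at -80 in CRELD2 on chromosome 22 and at -194 in HSP90B1 on chromosome 12. In CRELD2 the element is on the opposite strand, so its letters read in reverse complement, and HSP90B1 holds another such reversed copy at -89.
HSPA5 element: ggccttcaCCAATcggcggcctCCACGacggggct
XBP1 element: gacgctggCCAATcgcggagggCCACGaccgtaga
PDIA6 element: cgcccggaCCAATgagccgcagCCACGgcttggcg
CRELD2 element: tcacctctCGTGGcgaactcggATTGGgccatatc
HSP90B1 element: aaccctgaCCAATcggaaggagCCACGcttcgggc
The whole windows of HSPA5 (chr9:125241294-125241593, minus strand) and XBP1 (chr22:28800520-28800819, minus strand) are printed because these are the chaperone and the transcription factor that the response centres on, with the same capitals.
HSPA5: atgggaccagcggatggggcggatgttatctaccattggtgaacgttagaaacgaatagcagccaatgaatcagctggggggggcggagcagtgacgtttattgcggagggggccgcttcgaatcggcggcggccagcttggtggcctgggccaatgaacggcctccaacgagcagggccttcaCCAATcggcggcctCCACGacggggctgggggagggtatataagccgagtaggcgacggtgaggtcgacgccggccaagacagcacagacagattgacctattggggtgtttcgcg
XBP1: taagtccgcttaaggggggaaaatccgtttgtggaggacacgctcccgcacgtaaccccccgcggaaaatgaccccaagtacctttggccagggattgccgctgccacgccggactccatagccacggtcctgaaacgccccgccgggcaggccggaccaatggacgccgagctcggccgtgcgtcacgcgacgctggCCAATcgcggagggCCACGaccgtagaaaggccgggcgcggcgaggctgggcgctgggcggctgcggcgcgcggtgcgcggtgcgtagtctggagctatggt
Over all genes of the table, 25 hold the element and 16 of these were tested. Of the 16, 10 were higher with siRNA2 and 2 lower (median 0.72), and the 10 include the 5 of the list. A match is a description of letters and not a measured binding site.

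YAP and TAZ are coactivators that the Hippo pathway holds in the cytoplasm of crowded cells, and that bind TEAD factors to raise genes of growth and matrix contact. Of 22 tested target genes 16 were lower with siRNA2 and 3 higher (median -0.93; 14 to 19 lower on leaving out any 1 library). CTGF, a secreted matricellular protein and a standard YAP readout, had 4.25, 4.004 and 4.13 CPM with siRNA2, against 62.2, 64.3 and 72.9 CPM with siRNA3. The groups were tight and far apart, with a difference of -4.06 ± 0.11 (edgeR adjusted p = 6.18e-07). CYR61, of the same family, had 13.4, 14.5 and 13.5 CPM with siRNA2, against 180.3, 183 and 212 CPM with siRNA3, a difference of -3.85 ± 0.11 (edgeR adjusted p = 6.55e-07). The control libraries, at 12.8, 13 and 13.8 CPM of CTGF and 27.4, 30.8 and 31.1 CPM of CYR61, lay between the groups for both genes. Against control CTGF was -1.77 ± 0.10 with siRNA2 and 2.34 ± 0.09 with siRNA3, and CYR61 was -1.2 ± 0.10 with siRNA2 and 2.7 ± 0.10 with siRNA3. ANKRD1, a nuclear ankyrin repeat protein, had 11.2, 12.3 and 11.2 CPM with siRNA2, against 38.9, 39.4 and 44.3 CPM with siRNA3, a difference of -1.87 ± 0.10. AXL, a receptor tyrosine kinase, had 293, 309 and 269 CPM with siRNA2, against 1109.7, 1123 and 1121 CPM with siRNA3, a difference of -1.99 ± 0.09. AMOTL2, a feedback inhibitor of YAP, had 26.8, 26.3 and 26.8 CPM with siRNA2, against 108, 103 and 101 CPM with siRNA3. The control libraries had 108, 116 and 136 CPM, and against them AMOTL2 was -2.26 ± 0.09 with siRNA2 and -0.20 ± 0.08 with siRNA3, so siRNA3 was not above control as it was for CTGF. The members higher with siRNA2 were CRIM1 (0.91 ± 0.14), NT5E (0.82 ± 0.09) and IGFBP3 (0.63 ± 0.12).

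TEAD factors are known to bind GGAATG, which was searched on both strands in the same windows. The letters are short and stand in 4928 of 35116 promoters (14.03%). Of 1615 tested genes that hold them 468 were higher with siRNA2 and 500 lower, against 29.0% and 27.1% of all tested genes. RefSeq promoters were found for 16 of the 22 list genes, under 80%, so a share over the list is void. CYR61 is not among the 16, and some of the 16, lower and higher genes alike, have no match. CTGF has 3 matches and ANKRD1 has 2. These windows are printed as those of the most used YAP readouts, with the matches in capitals, for CTGF (chr6:131951323-131951622, minus strand) and for ANKRD1 (chr10:90921038-90921337, minus strand).
CTGF: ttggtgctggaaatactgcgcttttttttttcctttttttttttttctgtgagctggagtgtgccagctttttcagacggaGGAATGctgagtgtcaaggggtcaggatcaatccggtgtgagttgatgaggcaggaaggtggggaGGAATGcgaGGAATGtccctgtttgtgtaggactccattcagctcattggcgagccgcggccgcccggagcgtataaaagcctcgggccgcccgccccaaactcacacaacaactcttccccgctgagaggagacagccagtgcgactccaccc
ANKRD1: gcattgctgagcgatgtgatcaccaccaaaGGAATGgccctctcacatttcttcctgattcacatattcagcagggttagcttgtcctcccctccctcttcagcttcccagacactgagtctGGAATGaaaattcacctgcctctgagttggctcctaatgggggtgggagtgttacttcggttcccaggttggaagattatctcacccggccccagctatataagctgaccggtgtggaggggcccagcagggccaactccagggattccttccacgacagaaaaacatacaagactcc

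Serum response factor and its actin-sensing coactivators drive genes of contractile filaments. Of 18 tested smooth muscle actin and SRF target genes 11 were lower with siRNA2 and 1 higher (median -0.94), the 1 being lost on leaving out any siRNA2 library. TAGLN, the actin-binding protein transgelin, had 5.77, 5.09 and 5.39 CPM with siRNA2, against 47.6, 59.5 and 56.3 CPM with siRNA3. The siRNA2 libraries overlapped the control libraries (4.79, 5.1 and 5.32 CPM), siRNA3 was above both, and the difference was -3.38 ± 0.12 (edgeR adjusted p = 1.38e-06). TPM1, a tropomyosin, had 371, 384 and 372 CPM with siRNA2, against 1423, 1564 and 1696 CPM with siRNA3, a difference of -2.11 ± 0.10, and the siRNA2 libraries again overlapped the control libraries (404, 426 and 376 CPM). MYH9, the heavy chain of non-muscle myosin IIA, had 806, 797 and 735 CPM with siRNA2, against 2721, 2675 and 1278 CPM with siRNA3. siRNA3 replicate 3 was far under its group but above siRNA2, and the difference of -1.56 ± 0.25 was -1.84 without it. SMTN, smoothelin, was lower too (-1.42 ± 0.09). ACTA2, smooth muscle actin, did not follow them and had 38.6, 40.5 and 36.8 CPM with siRNA2, against 42, 41.1 and 48.2 CPM with siRNA3. The groups lay side by side, the difference of -0.23 ± 0.10 did not pass the test, and both were far above control (2.42, 2.1 and 2.4 CPM).

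**Figure D4:**
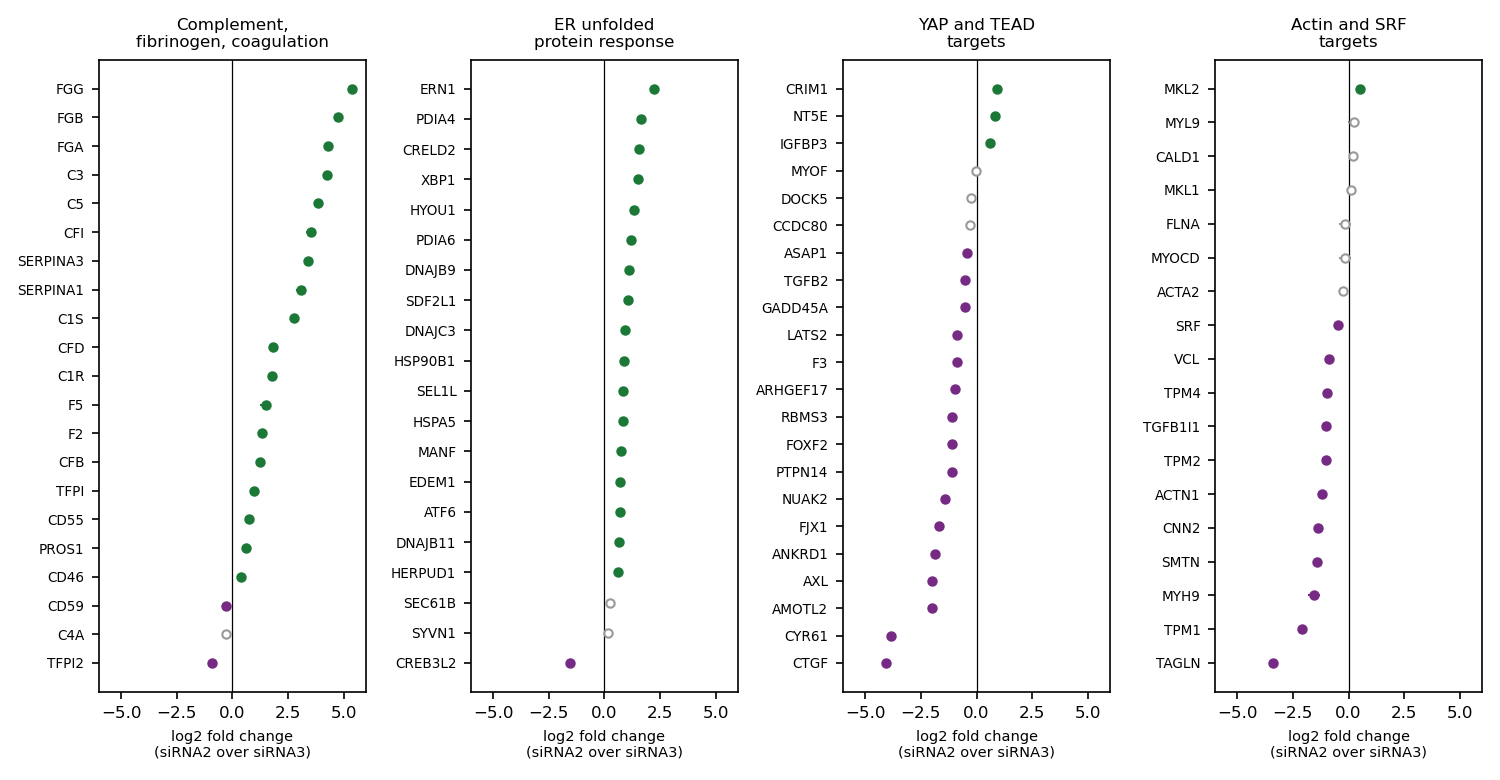
Log2 fold change of siRNA2 over siRNA3 (x axis, bars are the standard error) for tested members of 4 lists, complement and fibrinogen, unfolded protein response, YAP and TEAD targets, and actin and SRF targets, filled where called and open where not. The first 2 lists lie mostly right of 0 and the last 2 mostly left of 0, with TFPI2, CREB3L2, CRIM1 and NT5E among those on the other side.

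TGF-beta signalling is a driver of the mesenchymal state. Of 32 tested genes 11 were higher with siRNA2 and 12 lower, not far from the 29.0% and 27.1% of all tested genes, so only single members are described. The feedback genes PMEPA1 and SMAD7 were lower. SMAD7, an inhibitor of the receptors, had 20.7, 19.5 and 21.3 CPM with siRNA2, against 41.5, 41.9 and 40.2 CPM with siRNA3, a difference of -1.06 ± 0.08 (edgeR adjusted p = 2.08e-05). PMEPA1 (-1.0 ± 0.08) and SMAD3, the receptor-activated signal carrier (-0.97 ± 0.09), moved in the same direction. The higher ones were led by a co-receptor and by ligands of the BMP and activin groups, with TGFBR3, betaglycan, at 2.36 ± 0.12, BMP6 at 2.24 ± 0.13, BMP4 at 2.01 ± 0.14 and INHBB at 1.98 ± 0.10.

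Matrix and matrix receptor genes also divided by member. Among 19 tested collagens 8 were higher with siRNA2 and 6 lower, against 29.0% and 27.1% of all tested genes. COL12A1, a collagen that coats fibrils, had 9.68, 8.65 and 8.03 CPM with siRNA2, against 145, 149 and 69.7 CPM with siRNA3. siRNA3 replicate 3 was again the lowest of its group, and the difference of -3.83 ± 0.28 was -4.11 without it. The basement membrane chains COL4A1 (-1.55 ± 0.19, and -1.76 without it) and COL4A2 (-1.08 ± 0.18, and -1.29 without it) were lower too, while COL4A5 of the same class was higher (1.16 ± 0.14). The fibrillar chains COL3A1 (3.94 ± 0.20) and COL5A2 (2.33 ± 0.15) were higher, while COL5A1 was lower (-0.89 ± 0.17). Of 26 integrin and laminin genes 13 were higher and 3 lower (median 0.45). ITGB4, the hemidesmosome integrin of epithelia (1.62 ± 0.17), ITGB2 (2.36 ± 0.23) and ITGB8 (2.21 ± 0.31) were higher. ITGB3, a vitronectin receptor subunit, had 2.64, 2.4 and 2.1 CPM with siRNA2, against 17.5, 13.8 and 9.49 CPM with siRNA3, a difference of -2.56 ± 0.22, and ITGB6 was lower as well (-1.12 ± 0.14). Of 17 matricellular genes 7 were higher and 7 lower, with SPARC (-1.41 ± 0.10) and TNC (-1.1 ± 0.15) among the lower ones and SMOC1 (2.19 ± 0.10) among the higher ones.

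Of 17 tested proteases and inhibitors of the matrix 5 were higher and 5 lower, near the shares of all tested genes. MMP7, matrilysin, which epithelial cells secrete, had 87.8, 83 and 99.998 CPM with siRNA2, against 12.1, 13.3 and 14.6 CPM with siRNA3. MMP2, a gelatinase typical of stromal cells, had 22.5, 22.4 and 22.2 CPM with siRNA2, against 83.8, 91.3 and 62.4 CPM with siRNA3. The groups did not overlap for either, with differences of 2.71 ± 0.12 for MMP7 and -1.87 ± 0.13 for MMP2. MMP9 (-1.76 ± 0.19) and the plasminogen activator PLAT (-1.67 ± 0.12) were lower with siRNA2, and MMP15, a membrane-bound metalloproteinase, was higher (1.96 ± 0.10).

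The ERBB receptors bind ligands of the EGF and neuregulin families. Of 13 tested ERBB receptor, ligand and feedback genes 7 were higher with siRNA2 and 2 lower. ERBB3, the receptor for neuregulins, had 14.1, 14.6 and 13.7 CPM with siRNA2, against 0.758, 1.06 and 0.615 CPM with siRNA3. The control libraries, at 14.9, 10.6 and 12.6 CPM, overlapped siRNA2, and siRNA3 stood apart, with a difference of 4.07 ± 0.17 (edgeR adjusted p = 2.1e-06). EGFR (-0.05 ± 0.27) and ERBB2 (0.03 ± 0.10) did not pass the test. The EGFR ligand AREG was higher (2.0 ± 0.16), and HBEGF (-1.16 ± 0.21) and NRG1 (-0.74 ± 0.09) were lower.

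Of 25 tested WNT receptor, inhibitor and feedback genes 12 were higher with siRNA2 and 3 lower. AXIN2, a direct feedback target of beta-catenin signalling, had 25.8, 24.8 and 25.8 CPM with siRNA2, against 5.08, 5.55 and 5.12 CPM with siRNA3, a difference of 2.23 ± 0.09 (edgeR adjusted p = 1.81e-06). siRNA2 was a little above control (19.3, 18 and 18.8 CPM) and siRNA3 far under it. RNF43, a ubiquitin ligase that removes WNT receptors, had 23.2, 21.4 and 25.1 CPM with siRNA2, against 1.84, 2.12 and 1.57 CPM with siRNA3, and LGR6, an R-spondin receptor, had 50.02, 41.8 and 44.5 CPM with siRNA2, against 3.54, 3.24 and 3.5 CPM with siRNA3. Neither overlapped between groups, with differences of 3.6 ± 0.13 for RNF43 and 3.68 ± 0.11 for LGR6. NKD1, another feedback inhibitor, was higher (2.9 ± 0.26), and the ligands WNT5B (-2.59 ± 0.18) and WNT9A (-2.49 ± 0.12) were lower.

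Ephrin, semaphorin and netrin genes, which steer axons and sort epithelial cells, were higher with siRNA2 in 19 of 28 tested cases and lower in 4 (median 0.98), with 3 of the 28 passing the filter through 1 group alone. SEMA3A, a secreted repellent, had 177, 177 and 207 CPM with siRNA2, against 42.2, 37.9 and 29.4 CPM with siRNA3, a difference of 2.31 ± 0.14. The receptors EPHA7 (2.45 ± 0.35) and EPHA4 (1.82 ± 0.24) and the semaphorin SEMA4D (1.62 ± 0.11) were higher, and EPHB2 (-1.06 ± 0.11), EPHA2 (-0.79 ± 0.08) and SEMA7A (-1.06 ± 0.11) were lower.

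AP-1 and immediate early genes respond within minutes to growth factors and stress. Of 24 tested 7 were higher with siRNA2 and 11 lower, against 29.0% and 27.1% of all tested genes. DUSP1, a phosphatase that shuts off MAP kinases, had 24.8, 27.1 and 27.1 CPM with siRNA2, against 157, 154 and 176 CPM with siRNA3. siRNA2 was under control (96.7, 105 and 106 CPM) and siRNA3 above it, with a difference of -2.68 ± 0.10. CREB5 (-3.38 ± 0.21), FOSL1, the AP-1 member linked to invasion (-1.56 ± 0.11), and MAFF (-1.58 ± 0.13) were lower, and FOS (1.95 ± 0.15) and FOSB (0.86 ± 0.16) were higher, so members of the same dimer family moved in opposite directions.

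Inflammatory mediators moved both ways. Of 15 tested cytokines 8 were higher with siRNA2 and 6 lower, and 3 of the 15 passed the filter through 1 group alone. IL11, a cytokine of the IL-6 family made by stromal cells, had 10.1, 9.91 and 10.5 CPM with siRNA2, against 98.8, 102 and 115 CPM with siRNA3. The siRNA2 libraries overlapped the control libraries (8.37, 10.2 and 10.3 CPM), with a difference of -3.42 ± 0.10 (edgeR adjusted p = 6.58e-07). IL32 (-2.41 ± 0.14) and the monocyte chemokine CCL2 (-2.06 ± 0.17) were lower as well. The neutrophil chemokines went the other way, with CXCL5 at 2.29 ± 0.21, CXCL1 at 1.96 ± 0.28, CXCL3 at 1.35 ± 0.22 and CXCL8 at 1.25 ± 0.18. For CXCL5, which had 423, 458 and 657 CPM with siRNA2, against 117, 81.3 and 107 CPM with siRNA3, siRNA2 overlapped the control libraries (471, 544 and 542 CPM) and siRNA3 was under both. Of 19 NF-kB subunits, inhibitors and targets 5 were higher and 10 lower, against 29.0% and 27.1% of all tested genes. The lower ones included the subunits NFKB1 (-0.86 ± 0.08) and NFKB2 (-1.39 ± 0.09) and TRAF1 (-2.08 ± 0.10). The higher ones included NFKBIZ (1.5 ± 0.15), BCL3 (1.22 ± 0.10) and ICAM1 (1.33 ± 0.21). In prostaglandin synthesis PTGS2, the inducible cyclooxygenase, had 65.8, 64.4 and 96.2 CPM with siRNA2, against 14.2, 12.1 and 11.9 CPM with siRNA3, a difference of 2.52 ± 0.18. PLA2G4A, which frees its substrate (2.78 ± 0.11), and HPGD, which degrades the product (1.92 ± 0.23), were higher too, and PTGS1 was lower (-0.68 ± 0.14).

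Interferon-stimulated genes, RNA sensors and the RNA interference machinery are the routes by which cells handle double-stranded RNA. Of 30 tested interferon-stimulated genes 14 were higher with siRNA2 and 6 lower (median 0.22). Of the 30, 3 passed the filter through 1 group alone. IRF7, which drives type I interferon, had 9.13, 9.76 and 7.97 CPM with siRNA2, against 1.52, 1.7 and 1.1 CPM with siRNA3, a difference of 2.59 ± 0.17, and IRF1 (-0.70 ± 0.09) and SAMD9L (-0.95 ± 0.13) were lower. The sensor genes moved apart, IFIH1 (MDA5) being higher with siRNA2 (0.58 ± 0.10) and DDX58 (RIG-I, -1.1 ± 0.08) and EIF2AK2 (PKR, -0.93 ± 0.17) lower. TARBP2, a partner of Dicer in loading small RNAs, had 16.7, 16.2 and 16.1 CPM with siRNA2, against 44.8, 41.1 and 53.5 CPM with siRNA3. It was lower with siRNA2 (-1.56 ± 0.12), and the control libraries had 23.6, 28.1 and 27.9 CPM. DICER1 (0.01 ± 0.21) and AGO2 (-0.11 ± 0.19), the enzymes that make and use the guide strand, did not pass the test. Over the 19 tested genes of RNA interference and RNA sensing, 3 were higher and 7 lower, and 12 were lower without siRNA3 replicate 3.

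Among antigen presentation genes, single members are described. HLA-DMB had 12.1, 9.79 and 11.5 CPM with siRNA2, against 0.0842, 0.257 and 0.194 CPM with siRNA3, and its partner HLA-DMA had 5.03, 4.53 and 4.99 CPM with siRNA2, against 0.224, 0.353 and 0.583 CPM with siRNA3. Together they form the peptide exchanger of MHC class II, and the differences were 5.92 ± 0.26 for HLA-DMB and 3.61 ± 0.27 for HLA-DMA. Both passed the filter through the siRNA2 libraries alone, which set their direction. The class II chain HLA-DRA and the invariant chain CD74 were too low to test, and CIITA, the class II master regulator, was at 0 in all 6 libraries. Of 17 tested class I presentation genes 6 were higher and 5 lower, near the shares of all tested genes. The endoplasmic reticulum chaperones of the loading complex, PDIA3 (1.11 ± 0.12) and CALR (0.95 ± 0.09), were higher, and the immunoproteasome subunit PSMB9 (-1.43 ± 0.17) and the peptide transporter TAP1 (-1.11 ± 0.11) were lower.

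Metabolic and stress lists held members of both directions. A549 cells carry a KEAP1 mutation that keeps NRF2 active, and of 30 NRF2 pathway genes 15 were higher with siRNA2 and 6 lower (median 0.31). GPX2, a glutathione peroxidase (1.94 ± 0.15), and the export pumps ABCC2 (1.6 ± 0.11) and ABCC3 (1.53 ± 0.10) were higher, and SLC7A11, the cystine importer (-1.73 ± 0.24), and GCLM of glutathione synthesis (-0.71 ± 0.15) were lower. Of 29 glycolysis and hypoxia genes 15 were lower and 7 higher (median -0.39), and the 7 became 4 without siRNA2 replicate 1, without siRNA2 replicate 2 or without siRNA3 replicate 1. PFKFB4 (-1.52 ± 0.11), NDRG1 (-1.31 ± 0.08) and the lactate exporter SLC16A3 (-1.2 ± 0.08) were lower, while CA9, a carbonic anhydrase that hypoxia induces, was higher (4.93 ± 0.26). Of 27 cholesterol and fatty acid genes 9 were higher and 5 lower, against 29.0% and 27.1% of all tested genes. The desaturase SCD (1.73 ± 0.15) was higher and FDPS of the mevalonate chain (-0.81 ± 0.11) lower. Of 27 genes of the ATF4 stress response 10 were higher and 9 lower (median -0.02, against 0.86 for the unfolded protein response), not far from the shares of all tested genes. Of these 27, 2 passed the filter through 1 group alone. NUPR1 (3.04 ± 0.17) and ASNS, asparagine synthetase (1.3 ± 0.18), were higher, and SHMT2 of mitochondrial folate metabolism (-1.59 ± 0.09) and the amino acid carrier SLC7A5 (-0.95 ± 0.10) were lower. The metal-binding MT2A had 92.6, 111 and 90.5 CPM with siRNA2, against 317, 306 and 483 CPM with siRNA3, a difference of -1.97 ± 0.20.

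Cell cycle, p53 and repair lists held few large differences. Of 29 p53 target genes 10 were higher with siRNA2 and 9 lower (median 0.05), near the 29.0% and 27.1% of all tested genes. The cytokine GDF15 (1.5 ± 0.14) and MDM2, the p53 ligase (0.68 ± 0.12), were higher, DDB2 of nucleotide excision repair (-1.11 ± 0.09) and TP53I3 (-0.94 ± 0.11) were lower, and CDKN1A, the p21 inhibitor, did not pass the test (0.13 ± 0.10). Of 37 replication genes 6 were higher and 12 lower (median -0.14), and the 6 became 3 without siRNA2 replicate 1, without siRNA2 replicate 2 or without siRNA3 replicate 1. The nuclease FEN1 (-0.80 ± 0.11) and the helicase subunits MCM3 (-0.74 ± 0.08) and MCM4 (-0.56 ± 0.08) were lower. Of 32 mitosis genes 15 were higher and 4 lower (median 0.31), and the 15 became 9 without siRNA2 replicate 2 and the 4 became 2 without siRNA2 replicate 3. Cyclin A2 (CCNA2, 0.90 ± 0.09) was higher and CDC20, an activator of the anaphase-promoting complex, was lower (-0.64 ± 0.12). GINS4 (1.19 ± 0.10) was the only replication gene called with a difference of 1 or more on the log2 scale, and no mitosis gene was.

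Of 38 BLM partner, recombination and Fanconi anaemia genes 11 were higher with siRNA2 and 6 lower (median 0.06). The 11 lie near the 29.0% of all tested genes called higher, and the 6 under the 27.1% called lower. The 11 became 7 without siRNA2 replicate 1 and 5 without siRNA2 replicate 2. The 6 became 9 without siRNA3 replicate 3, 12 with the length offset (each library corrected for its trend with transcript length) and 4 on log2 of TPM plus 1. RAD54B, a recombination motor (0.61 ± 0.11), was higher, and the structure-selective nuclease MUS81 (-0.99 ± 0.08) and the Fanconi core members FANCE (-0.85 ± 0.15) and FANCL (-0.77 ± 0.11) were lower. MUS81 had 15.4, 15.5 and 15.6 CPM with siRNA2, against 30.6, 28 and 30.8 CPM with siRNA3. No member of this list was called with a difference of 1 or more. Of 38 ribosomal protein genes, which are short and highly expressed, 0 were higher and 3 lower in the edgeR quasi-likelihood test. At an unadjusted p under 0.05 there were 0 higher and 4 lower, with DESeq2 0 higher and 5 lower, and with limma on log2 of TPM plus 1 there were 5 of each, and the edgeR fit with the length offset gave 1 higher and 16 lower. Without siRNA3 replicate 3, the library with the length trend, 9 were higher and 5 lower, and without siRNA3 replicate 1 7 were lower.

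**Figure D5:**
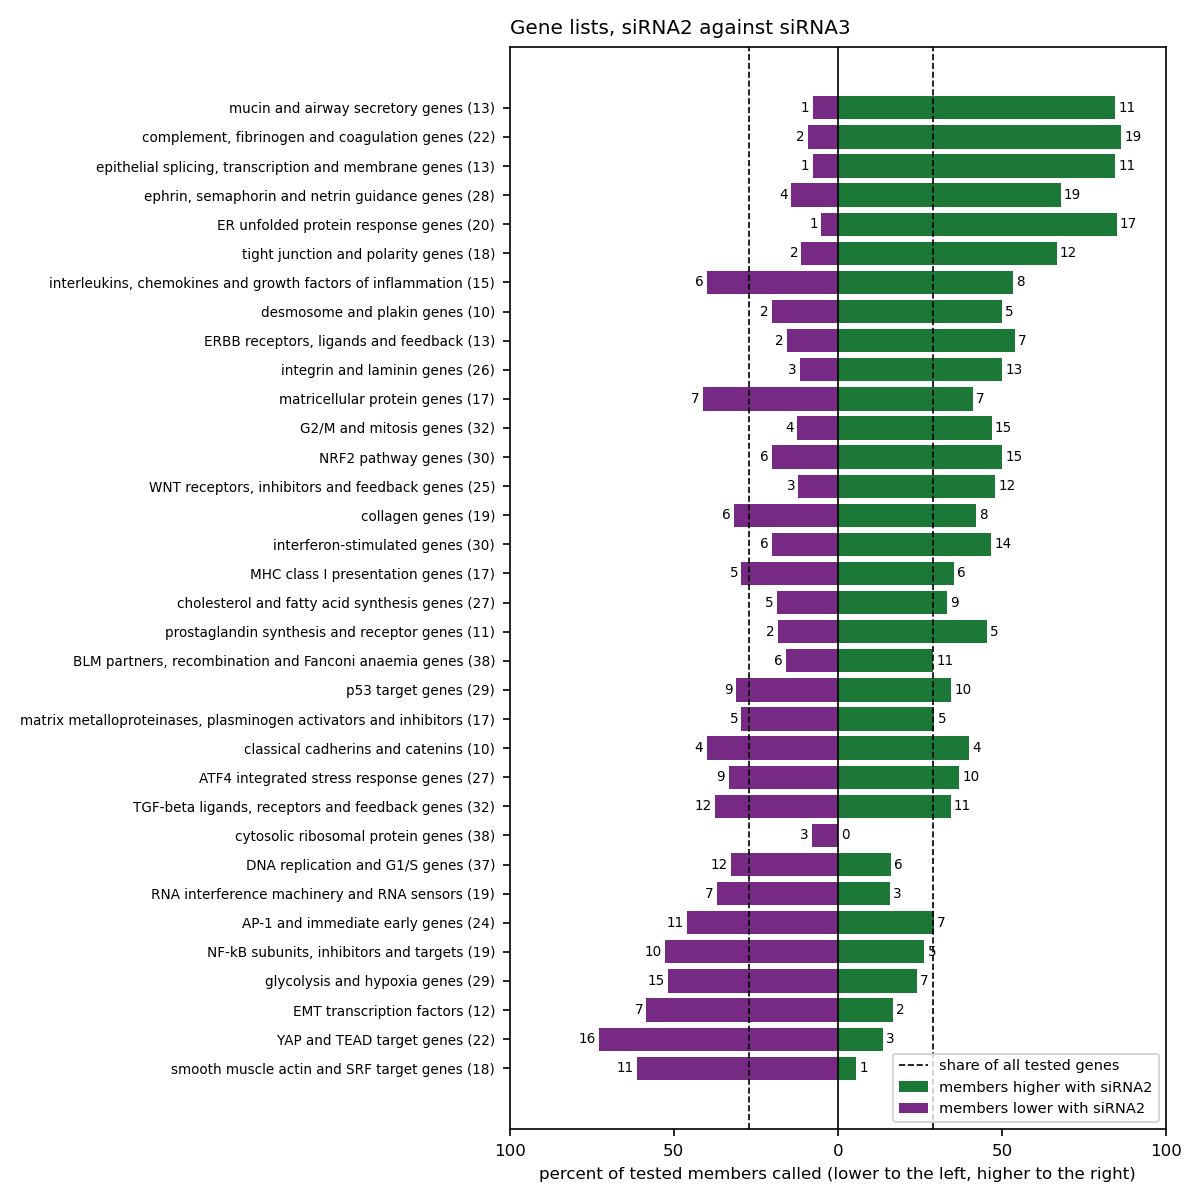
Percent of tested members of 34 gene lists that were lower with siRNA2 (bars to the left) and higher with siRNA2 (bars to the right), with dashed lines at the shares of all 13598 tested genes, 27.1% lower and 29.0% higher. The mucin, complement, unfolded protein response and epithelial lists reach far past the right dashed line, and the YAP and actin lists far past the left one.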

How the data were processed

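RNA sequencing libraries (TruSeq Stranded Total RNA with Ribo-Zero Gold, per the labels' protocols) were compared between A549 cells given siRNA2 and A549 cells given siRNA3. The deposited files hold RSEM expected counts, TPM and effective transcript length for 27968 gene symbols, per the file headers. The submitters' processing notes name RSEM and the hg19 genome, but for the aligner, the annotation and RSEM's version no source used here gives a name. FPKM columns were left out. Because RSEM divides shared reads among similar transcripts, values of near-identical gene copies are uncertain. Groups and replicate numbers come from the labels.

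Expected counts were rounded and tested with edgeR 4.0.16 in R 4.3.3 (TMM scaling, quasi-likelihood F test, group means only, CPM of at least 1 in 3 of the 6 libraries, Benjamini-Hochberg over 13598 genes, threshold 0.05). CPM values are on library totals. The deposited TPM values, scaled to length by the authors' RSEM run, served to compare genes and as an alternative. Values against control came from 1 fit of the 12 A549 libraries. On simulated counts for this comparison of 13598 genes, the test recovered 47.8% of genes set 1.5-fold apart, 89.6% of those set 2-fold apart and 100% of those set 4-fold apart, with 13 other genes called. Only 67, 67 and 66 genes were set apart, and the counts held no length trend, while 7622 genes were called in the data. The shares recovered and the 13 other calls therefore need not hold for the data.

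The comparison and its 45 gene lists were chosen with earlier results of these data known. Named genes are BLM, the 12 highest and 12 lowest called genes with a mean of at least 5 CPM and groups that do not overlap, the CEACAM, cadherin and transition factor lists, cell type markers, and up to 4 higher and 4 lower called members of each list with a mean of at least 2 CPM. ACTA2, AGO2, AGR2, ANKRD1, C3, CDKN1A, DICER1, EGFR, ERBB2, HSP90B1, HSPA5, OCLN, PDIA6, RMI1, RMI2, TJP1 and members named only as too low to test or as not passing the test were added after their values were seen. Some genes that the rule names are not reported here.

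Alternatives were DESeq2 1.42.0 size factors, upper quartile factors, 4 other filters on low counts, the DESeq2 Wald test, limma 3.58.1 voom, limma-trend on log2 TPM (pseudocount 1 or 0.1), a replicate block, all 12 A549 libraries, a length offset, a minimum difference of 1, and leaving out each library. The labels do not say whether replicate numbers pair the libraries, and the main fit used no pairing. No library was a copy of another: within a group, counts differed beyond sampling noise (chi-square per gene 2.79 to 89.3).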

Additional observations from a re-analysis of the deposited data

How the results depend on the processing

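The counts of 7622 differing genes, 3937 higher and 3685 lower with siRNA2, stayed within 1.5 times under each alternative except the added requirement of a log2 difference of at least 1, which left 2309 genes, 1466 higher and 843 lower. Under it BLM, at 0.73, was no longer called. Leaving out 1 library gave 6259 to 9040 genes, 3259 to 4550 higher and 3000 to 4490 lower, the most without siRNA3 replicate 3, and BLM differences of 0.70 to 0.76.

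The split of calls moved with the scaling. Upper quartile factors gave 4286 higher and 3265 lower (56.8% higher, against 51.7%), the length offset 4028 and 4851 (45.4%) and the fit of 12 A549 libraries 4018 and 4468 (47.3%), so that under these last 2 the majority was lower, and log2 of TPM plus 1 4226 and 2810 (60.1%). On log2 of TPM plus 0.1 the median of all genes shifted to 0.10. With the replicate number as a block 6796 genes differed, 3584 higher and 3212 lower. Same-numbered libraries deviated with correlations of -0.25, 0.06 and -0.16, and differently numbered ones with correlations of -0.38 to 0.40. Deviations of 3 libraries balance out around their mean, so these values cannot show whether the numbers pair the libraries.

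None of 5685 values of named genes under the alternatives changed sign, and 192 lost their call, 104 of them under the minimum difference of 1. Of 1800 list counts 131 moved by over 1.5 times. Depth limits genes with few reads, such as CEACAM5 with 0 to 6 expected counts in the siRNA3 libraries.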

Other observations

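The A549 libraries given siRNA1, another siRNA against BLM, enter the fit of 12 A549 libraries but are tested against no group here. Their levels are set beside those of siRNA2 and siRNA3 for genes chosen after the values were seen. BLM had 1.27, 1.26 and 1.24 CPM with siRNA1. CDH1, E-cadherin, had 153, 163 and 156 CPM with siRNA1, near the siRNA2 libraries (179.9, 177 and 172) and far above the siRNA3 libraries (4.1, 4.04 and 2.82). C3 had 321, 297 and 336 CPM, overlapping siRNA2 (317, 302 and 324) and above siRNA3 (16, 16.5 and 14.6). FN1, fibronectin, had 3315, 3184 and 3597 CPM, above all siRNA2 libraries (2846, 2486 and 2713) and all siRNA3 libraries (454, 505 and 274). For CDH1, C3 and FN1 siRNA1 stood on the siRNA2 side.

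Other genes stood on the siRNA3 side or between. TAGLN, transgelin, had 52.7, 46.8 and 50.4 CPM with siRNA1, against 5.77, 5.09 and 5.39 with siRNA2 and 47.6, 59.5 and 56.3 with siRNA3. SNAI2 had 6.71, 7.53 and 6.71 CPM with siRNA1, against 1.78, 2.13 and 1.55 with siRNA2 and 7.77, 7.89 and 9.68 with siRNA3. CTGF had 23.4, 26.4 and 23.6 CPM with siRNA1, between siRNA2 (4.25, 4.004 and 4.13) and siRNA3 (62.2, 64.3 and 72.9). EPCAM had 8.43, 9.85 and 7.8 CPM with siRNA1, between siRNA2 (48.9, 49.8 and 61.6) and siRNA3 (1.57, 1.54 and 1.91). SPDEF had 3.23, 2.43 and 3.53 CPM with siRNA1, also between siRNA2 (32.9, 30.4 and 28.6) and siRNA3 (1.01, 0.674 and 1.3). ERN1, the sensor IRE1, had 50.6, 50.5 and 52.4 CPM with siRNA1, near siRNA2 (60.3, 56.3 and 59.2), while HSPA5, the chaperone BiP, had 468, 478 and 482 CPM, under both siRNA2 (1267, 1284 and 1162) and siRNA3 (629, 669 and 709.6). Across these genes the siRNA1 libraries thus matched neither group throughout, with high E-cadherin and high SNAI2 and transgelin RNA in the same libraries.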
